A study of Mus musculus with 6 samples.

Results

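MiR-210 is a microRNA (miRNA), and both mature arms of its hairpin, mmu-miR-210-3p and mmu-miR-210-5p, were found by name among the 604 miRNAs measured in the mouse intestine. These 2 miRNAs are the subject here, and no listed member was missing. Small RNA was sequenced from the intestine of wild-type C57BL/6J pups in 3 Control and 3 NEC (necrotizing enterocolitis) libraries, and the methods name the ileum as the part taken. Pups of both groups entered at 5 days of age and were followed for 96 h. Control pups stayed with the dam, with no low oxygen and no cold, and their treatment label reads PBS. NEC pups were given formula (40 μl of 33% Esbilac) and PBS by gavage every 4 h. Every 12 h they were also placed in 99.9% N2 for 100 s and then kept at 4 °C for 10 min. Feeding, low oxygen and cold were applied together, so their parts in any difference cannot be told apart. How long after the last low-oxygen step the tissue was taken is not stated in these sources, nor whether the libraries of a group are from different pups. The p-values therefore measure the spread between these libraries, which may be technical.

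A miRNA hairpin is cut into a duplex of 2 short strands, the 5p and the 3p arm, and usually only 1 of them, the guide, stays in the silencing complex while the other is mostly degraded. MiR-210 is the miRNA best known for its response to low oxygen. When oxygen falls, the transcription factor HIF-1 is stabilised and raises transcription of the miR-210 gene, and the guide arm miR-210-3p is known to hold back mitochondrial respiration, for example through the iron-sulfur cluster scaffold ISCU in human cells. The comparison of NEC with Control asked whether either arm differed in intestine that had been through the low-oxygen steps of the NEC protocol.

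The sequences of both arms and of the hairpin are shown because every value below refers to 1 of these 2 strands. They were taken from RefSeq on GRCm38.p6, and all lie on the minus strand of chromosome 7. The hairpin gene Mir210 is at chr7:141221384-141221493, miR-210-5p at chr7:141221445-141221466 and miR-210-3p at chr7:141221407-141221428. No annotated RefSeq gene overlaps the hairpin, its neighbours are Rassf7 (141215425 to 141218658) and Gm51460 (141228206 to 141229616), and no other mature miRNA lies within 10000 bases. In the arms the capitals mark the seed (bases 2 to 8), the main part that pairs with a target mRNA. In the hairpin the capitals mark the 2 arms.
miR-210-5p: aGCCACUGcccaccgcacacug
miR-210-3p: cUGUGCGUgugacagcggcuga
Mir210 hairpin: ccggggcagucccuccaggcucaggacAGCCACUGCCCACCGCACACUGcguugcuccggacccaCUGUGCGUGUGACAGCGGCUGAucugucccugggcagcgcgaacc

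Each arm is 22 bases long, and RNAfold predicted 16 base pairs between them within the 110-base hairpin. Among 1738 mature mouse entries no other miRNA had the seed of either arm and none had an identical sequence. GC content was 63.6% in miR-210-3p and 68.2% in miR-210-5p, against a median of 47.8% over the 526 measured miRNAs with a sequence. Only 60 of these 526 had a GC content at or above that of miR-210-3p.

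The seed is the main guide to which messages an arm pairs with, and other kinds of site were not searched. The DNA word complementary to the miR-210-3p seed, ACGCACA, was searched on the sense strand in the longest annotated 3′UTR of each gene. It was present in 3.07% of 21027 3′UTRs (GENCODE on GRCm38), whereas the word for the miR-210-5p seed, CAGTGGC, was present in 12.6%. Of 7 genes known as miR-210 targets, mostly from human cells (Iscu, Efna3, Gpd1l, E2f3, Ndufa4, Sdhd and Ptpn1), 2 held the word. They are shown as examples of what a match looks like in the mouse. The 3′UTR of Efna3, which codes for an ephrin ligand, has 1 match at chr3:89314658-89314683, and that of Gpd1l, an enzyme related to glycerol-3-phosphate dehydrogenase, has 3, of which the first in the 3′UTR is at chr9:114902211-114902236. Both genes lie on the minus strand, and capitals mark the word.
Efna3: ggacctatgcaACGCACAgacacttt
Gpd1l: tacagacacacACGCACAtgagtgaa

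These matches are a description of the letters, and mRNA levels were not analysed here.

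The 6 libraries were not alike before NEC was considered. The library codes in the labels fall into 2 code series. Control replicates 1 and 2 and NEC replicates 2 and 3 belong to code series 1, and Control replicate 3 and NEC replicate 1 to code series 2. Spearman's correlation over all 604 miRNAs was 0.984 to 0.992 within a code series and 0.959 to 0.971 between them, with the same miRNAs as points in each. No source used here says what the code series stand for. Values are the authors' normalized log2 values, with medians of 4.78 to 5.01 per library. The table gives no counts, so the depth of a library is unknown. The label intestine was met by its miRNAs. The summed level of 5 epithelial miRNAs (miR-192-5p, miR-194-5p, miR-215-5p, miR-200b-3p and miR-141-3p) was 18.22 to 19.10 in Control and 18.15 to 18.94 in NEC, and that of the smooth muscle miRNAs miR-143-3p and miR-145a-5p 18.75 to 19.42 and 18.64 to 18.92. Neuronal miR-124-3p was at 1.18 to 1.50 in all libraries and pancreatic miR-217-5p at 0.73 to 1.27. The other neuronal miRNA, miR-9-5p, was at 1.36 to 1.45 in 5 libraries and stood apart at 5.68 in NEC replicate 1, and its part in the results was not tested.

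MiR-210-3p was abundant enough to be tested. Its normalized log2 values were 9.17, 9.44 and 9.43 in Control replicates 1, 2 and 3, and 9.58, 9.62 and 9.43 in NEC replicates 1, 2 and 3. Control replicate 1 was the lowest library and NEC replicate 2 the highest, and the groups overlapped, since NEC replicate 3 lay just below Control replicate 2. By mean level miR-210-3p was 97th of the 604 miRNAs, and its rank ran from 91 to 106 over the libraries. It held 0.0291% to 0.0505% of the summed back-transformed values of a library.

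The rare arm, miR-210-5p, was at 2.70, 2.68 and 2.13 in Control replicates 1, 2 and 3, and at 2.10, 3.01 and 2.77 in NEC replicates 1, 2 and 3. The lowest values were those of Control replicate 3 and NEC replicate 1, both from code series 2, and the groups overlapped. This arm was 439th of 604 and stayed under the minimum for testing, which 386 miRNAs reached by having 3 or more libraries at a back-transformed value of 10 or higher. Of the 2 arms, 1 was therefore tested together with all other miRNAs.

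**Figure D1:**
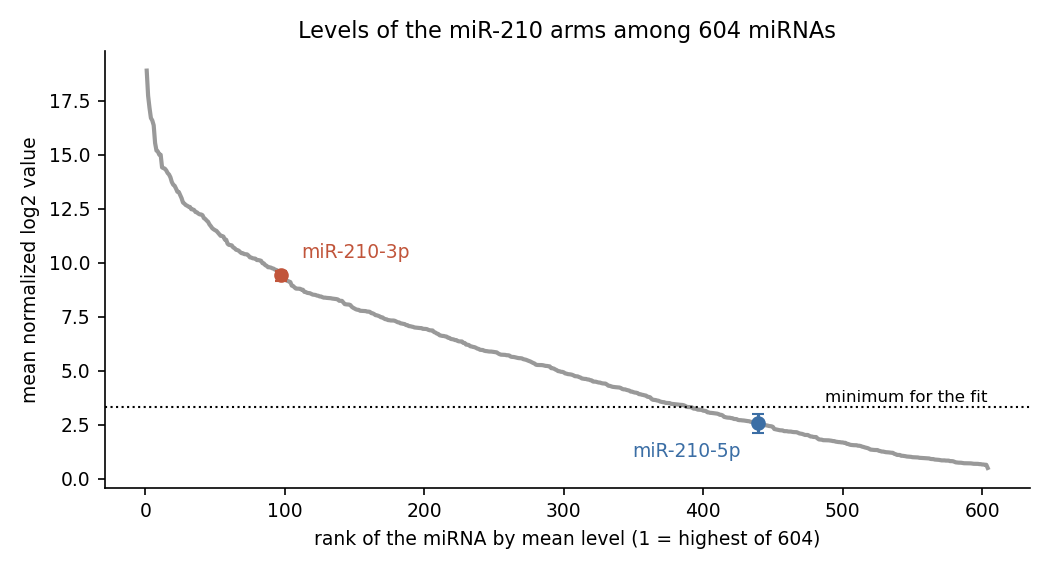
Mean normalized log2 value of each of the 604 miRNAs over the 6 libraries, ordered from the highest to the lowest. Points mark both arms of miR-210 with bars from their lowest to their highest library, and the dotted line is the minimum for the fit. MiR-210-3p lies at rank 97, and miR-210-5p at rank 439 below the line.

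The log2 level of miR-210-3p was close to that of its neighbours in this order. Just above it were miR-101b-3p (9.66 ± 0.89, SD over 6 libraries), miR-322-3p (9.62 ± 0.35) and miR-181d-5p (9.56 ± 0.073), and just below were miR-744-5p (9.40 ± 0.22), miR-17-5p (9.39 ± 0.31) and miR-340-5p (9.29 ± 1.28), around 9.44 ± 0.16 for miR-210-3p itself. Each of these 6 was above miR-210-3p in some libraries and below it in others. MiR-181d-5p was above it in 4 of 6 libraries and miR-744-5p in 3 of 6, so that the order within this stretch did not exceed the spread between libraries.

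Within the hairpin the 3p arm was by far the more abundant. The log2 difference between the arms, 3p minus 5p, was 6.47, 6.77 and 7.29 in Control replicates 1, 2 and 3 and 7.48, 6.61 and 6.67 in NEC replicates 1, 2 and 3. The mean of 6.88 corresponds to a back-transformed ratio of 118. Among 176 hairpins with both arms in the table, 90 had the higher mean in the 3p arm, and the size of the difference between arms had a median of 3.22. MiR-210 was 28th of the 176 by that size, counted from the most unequal.

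**Figure D2:**
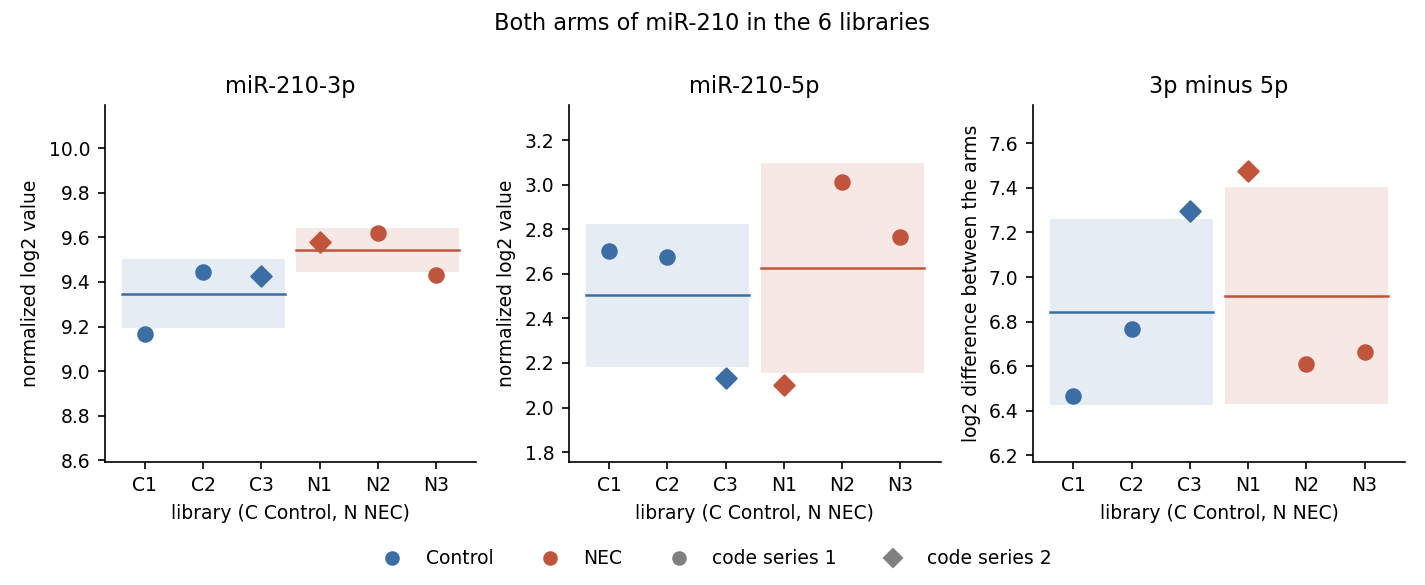
Normalized log2 values of miR-210-3p and miR-210-5p and their difference (each vertical axis spans the same width on the log2 scale) in Control (C1 to C3) and NEC (N1 to N3). Lines are group means and shaded bands 1 SD (n = 3). Circles are code series 1 and diamonds code series 2, which hold the 2 lowest miR-210-5p values, 2.13 and 2.10.

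In NEC, miR-210-3p was slightly higher on average and did not pass the test. The 3 Control libraries averaged 9.35 ± 0.16 (SD) on the log2 scale and the 3 NEC libraries 9.54 ± 0.098 (SD). NEC minus Control was 0.20 (standard error 0.23, limma adjusted p = 0.998), with a 95% interval of -0.33 to 0.72, or a ratio of 0.794 to 1.65 on the back-transformed scale. Standard errors, intervals and p-values from limma are moderated, that is, drawn toward the spread of all miRNAs in the fit. The SD of miR-210-3p over the 6 libraries was 0.16, against a median of 0.39 for miRNAs with a mean of 8 or higher. The error of 0.23 is therefore wider than its own libraries alone would give. An NEC library was above a Control library in 8 of the 9 pairs that can be formed. By exact two-sided permutation p was 0.2, where 3 libraries against 3 cannot go below 0.1. At an adjusted p under 0.05 limma called none of the 386 (0%), and 11 had an unadjusted p under 0.05. In 38 of the 386 (9.84%) the groups did not overlap, and miR-210-3p was not 1 of them. Its difference was close in size to that of a usual miRNA, the median absolute difference of all 386 being 0.22.

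The small difference had the same direction in both code series, and in neither was it shown to exceed the spread of the libraries. It was 0.22 in code series 1, with 2 Control and 2 NEC libraries (standard error 0.21, limma adjusted p = 0.573), and 0.15 in code series 2, with 1 library each. Taking the code series as a covariate gave a log2 difference of 0.20 with a standard error of 0.15, and a 95% interval of -0.15 to 0.54, a back-transformed ratio of 0.903 to 1.45 (limma adjusted p = 0.469). No miRNA passed in that fit either (0%), where 70 had an unadjusted p under 0.05 and the smallest adjusted p was 0.109. From code series 1 to code series 2 the NEC minus Control difference changed by -0.068. With 1 library per group in code series 2, that change cannot be set against a spread there. Leaving out Control replicate 1, the lowest library, brought the NEC minus Control difference down to 0.11. In both fits the interval ended below a log2 difference of 1, that is, below a doubling on the deposited scale. In tissue, fewer cells of a type and less of a miRNA per cell cannot be told apart.

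For miR-210-5p the groups did not differ beyond the spread of their libraries. The mean log2 value of 3 libraries was 2.50 ± 0.32 (SD) without and 2.63 ± 0.47 (SD) with the NEC protocol, apart by 0.12 (exact two-sided permutation test, p = 0.6, smallest possible 0.1). With no minimum, when all 604 miRNAs entered limma, the standard error was 0.31, the 95% interval -0.61 to 0.85 and the adjusted p 0.997. Code series 1 gave a difference of 0.20 and code series 2, with 1 library per group, one of -0.031. That change of -0.23 cannot be set against a spread within code series 2. The NEC minus Control difference turned to -0.062 without Control replicate 3 and to -0.069 without NEC replicate 2.

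The balance of the arms likewise did not differ between the groups beyond the spread of the libraries. Over 3 libraries each, 3p minus 5p averaged 6.84 ± 0.42 (SD) on the log2 scale for Control and 6.92 ± 0.49 (SD) for NEC, a change of 0.073 (exact two-sided permutation test, p = 0.7). Ordered from the largest change of the arm difference between the groups, miR-210 was 153rd of the 176 hairpins, whose median absolute change was 0.23. The change became -0.12 without Control replicate 1 and -0.21 without NEC replicate 1.

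The rare arm was lower in the libraries of code series 2. MiR-210-5p was at 2.68 to 3.01 in the 4 libraries of code series 1 and at 2.13 and 2.10 in the 2 libraries of code series 2, with no overlap. With all 604 miRNAs in limma and the condition as a covariate, the log2 difference of code series 2 minus code series 1 was -0.67 (standard error 0.15, adjusted p = 0.0112). It was -0.56 without NEC replicate 1, with an adjusted p of 0.123 in limma, and it was -0.46 (adjusted p = 0.0889) when each library was shifted by its total without the 10 most abundant miRNAs. Differences between the code series were frequent, with 277 of 604 miRNAs (45.9%) past an adjusted p under 0.05 in that fit, so that miR-210-5p was 1 of many. The lowest values varied less on the deposited scale. The median SD over libraries was 0.24 for the 129 miRNAs with a mean below 2, against 0.39 for those with a mean of 2 to 4. It was 0.42 for a mean of 4 to 8 and 0.39 for 8 or higher. MiR-210-5p, with a mean of 2.56 and an SD of 0.37, belongs to those with a mean of 2 to 4. How low values were transformed is not stated, so differences of this arm are not read as folds of counts.

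The abundant arm varied little over the libraries. MiR-210-3p was at 9.17 to 9.62 in code series 1 and at 9.43 and 9.58 in code series 2, a log2 difference of 0.088 with the condition as a covariate (standard error 0.16, limma adjusted p = 0.657). Between the code series 222 of 386 miRNAs (57.5%) had an adjusted p under 0.05 in limma. Of these, 98 were higher and 124 lower in code series 2, and miR-210-3p was not among them. The median absolute difference between the code series was 0.55, and 27 miRNAs had a smaller one than miR-210-3p. Its whole range over the 6 libraries was 0.45, the 21st smallest of 386, where the median range was 1.04. This comparison depends on the scaling. Shifting the libraries by their median deviation moved the median difference between the code series by 0.16, and by their total without the 10 most abundant miRNAs by 0.21, and miR-210-3p then differed by 0.25 (adjusted p = 0.238, limma) and 0.29 (adjusted p = 0.264, limma). The split of the miRNAs that passed was then 115 higher to 96 lower with the first shift and 113 to 78 with the second, against 84 to 153 when shifted by the 75th percentile.

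The difference between the arms was also compared between the code series. It was 6.63 ± 0.13 (SD, n = 4) in code series 1 and 7.39 ± 0.13 (SD, n = 2) in code series 2, higher by 0.76, and every library of code series 2 was above every one of code series 1. By exact two-sided permutation p was 0.0667, the smallest that 2 libraries against 4 allow. By the size of this change miR-210 was 73rd of the 176 hairpins, and the median of all of them was 0.62. This comparison was made after the values had been seen, and it is not separate from that of miR-210-5p. Code series 2 minus code series 1 was -0.67 for miR-210-5p and 0.088 for miR-210-3p. The share of the 176 hairpins without overlap between the code series was not counted.

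**Figure D3:**
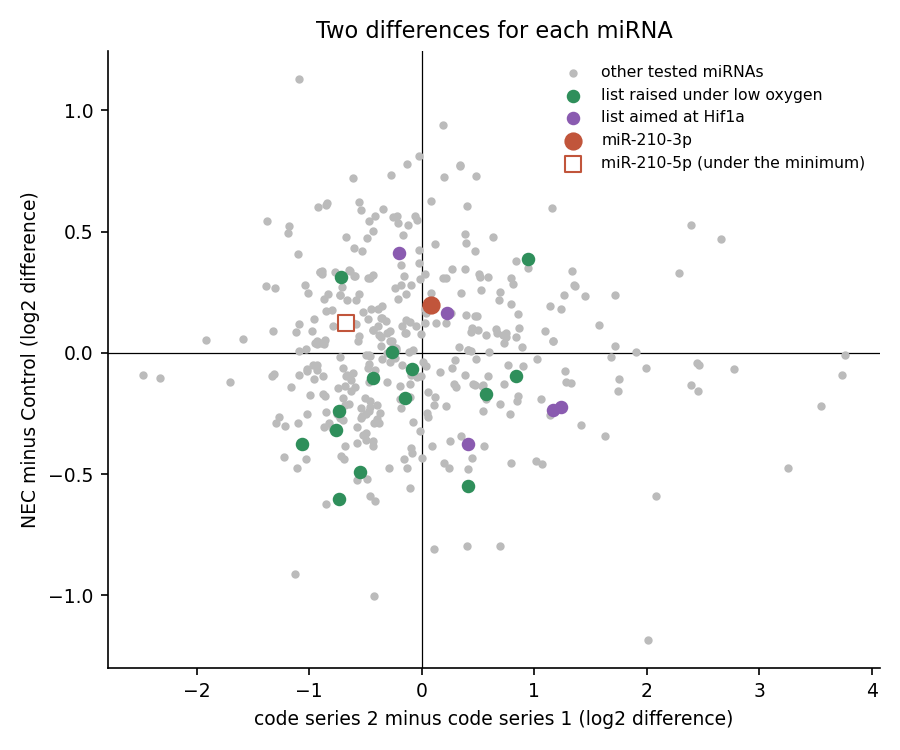
Log2 difference between the code series (horizontal, with the condition as a covariate) and between NEC and Control (vertical) for the 386 miRNAs tested and miR-210-5p. Green and purple points are the lists described next, of miRNAs reported to rise under low oxygen and of those acting on HIF-1α. MiR-210-3p lies near the centre at 0.088 and 0.20, and miR-210-5p, under the minimum, at -0.67 and 0.12.

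Other miRNAs with a place in the response to low oxygen were described next to miR-210-3p. A list of 15 miRNAs has been reported to rise under low oxygen, mostly in cultured human cells, and 14 of them were measured and tested. None passed an adjusted p under 0.05 in limma, against 0% of all miRNAs. None had an unadjusted p under 0.05, against 11 of all 386. With the code series as a covariate, 1 of the 14 had an unadjusted p under 0.05, against 70 of all 386. In NEC 3 of the 14 had a higher mean and 11 a lower one, with a median log2 difference of -0.18, where all 386 miRNAs had 200 higher and 186 lower and a median of 0.0099. Several of the 14 are close relatives, such as miR-23a-3p and miR-23b-3p or miR-26a-5p and miR-26b-5p, so they are not independent observations. Within code series 1 the median of the list was -0.19, and within code series 2 it was -0.13. The groups were apart for 1 of the 14, against 9.84% of all miRNAs. This was miR-103-3p, with lower values in NEC (log2 difference -0.18, standard error 0.22), and it is named after its values were seen. Between the code series 8 of the 14 differed at an adjusted p under 0.05, a share close to the 57.5% of all miRNAs tested.

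The 4 most abundant members of this list are given by library. MiR-21a-5p, which also responds to inflammation, had a larger log2 difference in NEC, 0.39 (standard error 0.41), with 15.81, 15.83 and 16.85 in Control and 17.12, 16.01 and 16.51 in NEC. The highest value in each group came from code series 2. MiR-26a-5p had a difference of -0.49 (standard error 0.36), with 15.23, 14.41 and 13.90 in Control and 13.92, 14.06 and 14.09 in NEC. Here Control replicate 1 stood above the others, with a difference of -0.75 in code series 1 against 0.021 in code series 2. MiR-27b-3p had 13.65, 13.60 and 13.67 in Control and 13.43, 13.43 and 13.86 in NEC, a difference of -0.067 (standard error 0.24). MiR-107-3p, made from an intron of a pantothenate kinase gene, had 13.14, 12.85 and 12.95 in Control and 12.66, 13.10 and 13.19 in NEC, a difference of 0.0016 (standard error 0.25). The groups overlapped for each of these 4, and the adjusted p was 0.998 for each in limma.

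A further 5 miRNAs are known to act on the mRNA of HIF-1α, the oxygen-sensitive subunit of the factor that raises miR-210. None of the 5 passed an adjusted p under 0.05 in limma, against 0% of all miRNAs. None had an unadjusted p under 0.05, against 11 of all 386. With the code series as a covariate, 1 of the 5 had an unadjusted p under 0.05, against 70 of all 386. In NEC 2 had a higher and 3 a lower mean, with a median log2 difference of -0.23, beside 200 higher, 186 lower and a median of 0.0099 over all 386. MiR-199a-5p, reported to fall in heart muscle cells at low oxygen, was at 10.34, 10.49 and 10.67 in Control and 10.80, 10.46 and 10.74 in NEC, a difference of 0.17 (standard error 0.24). MiR-20a-5p and miR-17-5p, from the miR-17-92 cluster known for cell growth, had differences of -0.23 (standard error 0.49) and -0.38 (standard error 0.26). For miR-20b-5p, a relative from the X-linked cluster, the difference was 0.41 (standard error 0.36). Code series 1 gave 0.012 for it and code series 2 gave 1.21, where Control replicate 3 was at 5.55 and NEC replicate 1 at 6.76.

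**Figure D4:**
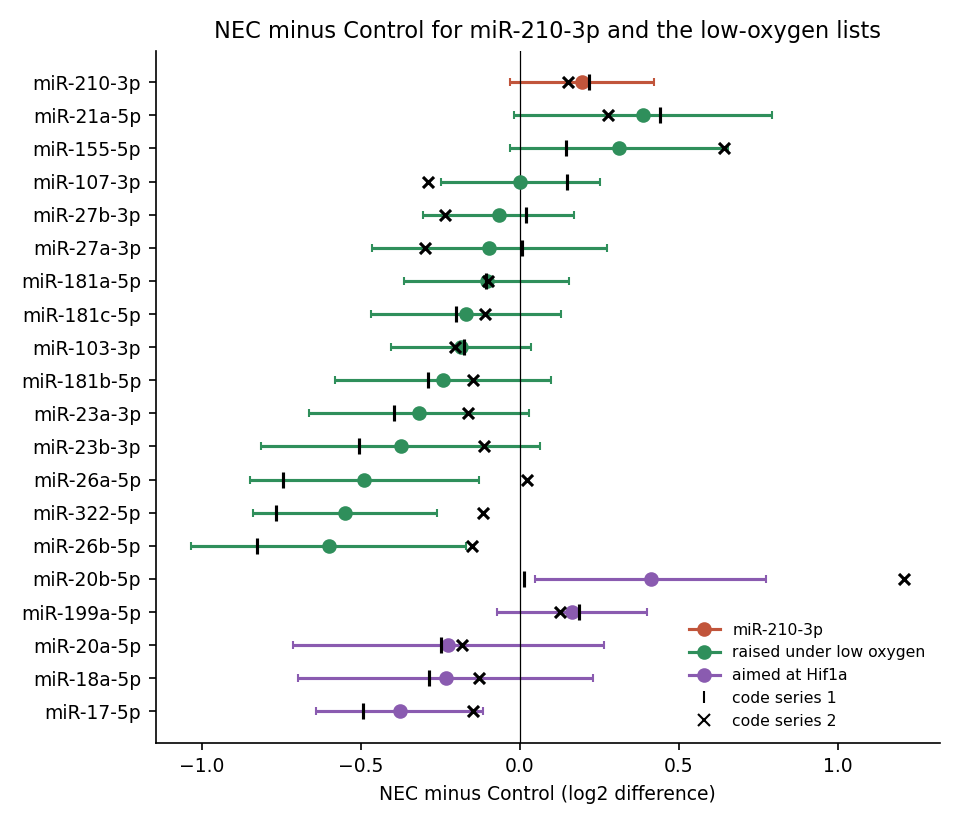
NEC minus Control log2 difference with its standard error from limma (n = 3 per group) for miR-210-3p, the 14 tested miRNAs reported to rise under low oxygen and the 5 known to act on the mRNA of HIF-1α. Black marks give the difference within each code series. MiR-210-3p is at 0.20, while 11 of the 14 lie below 0.

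The pattern of miR-210-3p over the 6 libraries was most like that of miR-330-5p (Pearson's r 0.89), miR-214-5p (r 0.85) and miR-434-5p (r 0.81), over 385 other miRNAs, and no r was above 0.9. These are 6 points that share libraries and code series, and the values are descriptions. MiR-330-5p was at 6.56, 6.74 and 7.05 in Control and at 7.11, 7.20 and 6.96 in NEC. MiR-214-5p was at 7.76, 8.01 and 8.42 in Control and at 8.57, 8.40 and 8.25 in NEC. As with miR-210-3p, Control replicate 1 was the lowest library for each of these 3. When the mean of each code series was taken off, the most similar were miR-455-5p (r 0.97), miR-668-3p (r 0.96) and miR-187-3p (r 0.95), and r was above 0.9 for 10 of the 385.

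The 3 miRNAs of red blood cells differed in how closely they followed miR-210-3p over the libraries, and correlations among the 3 were not computed. The values of miR-451a were 9.20, 9.96 and 9.55 in Control and 10.30, 9.78 and 9.67 in NEC. Over the 6 libraries r to miR-210-3p was 0.80 for miR-451a, 0.020 for miR-486a-5p and 0.31 for miR-144-3p. After the mean of each code series was taken off, it was 0.78, 0.80 and 0.39 for the same miRNAs in turn. In that setting 10 of the 385 other miRNAs were above 0.9, and how many reached 0.78 was not counted. The summed level of the 3 red cell miRNAs was 9.40 to 10.09 in Control and 9.84 to 10.42 in NEC. Both tested ones had a higher mean in NEC, miR-451a by 0.35 (standard error 0.30) and miR-486a-5p by 0.33 (standard error 0.37), at an adjusted p of 0.998 in limma. The third, miR-144-3p, was at 2.56 to 2.75 in code series 1 and at 5.60 and 5.83 in code series 2. These correlations were looked at after the values were seen, and the part of red blood cells in the level of miR-210-3p was not tested. The summed level of 2 leukocyte miRNAs was 7.41 to 8.35 in Control and 6.62 to 7.21 in NEC. The groups did not overlap for miR-150-5p (log2 difference -1.003, standard error 0.36), as for 9.84% of all miRNAs, and overlapped for miR-223-3p (-0.14, standard error 0.24). The summed level of 3 striated muscle miRNAs was 10.59 to 11.51 and 10.45 to 11.96, and the endothelial miR-126a-3p was at 14.87 to 15.65 and 14.88 to 15.43. Liver miR-122-5p was at 5.73 to 6.37 in Control and 6.30 to 7.58 in NEC. Their part was not tested either.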

How the data were processed

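Small RNA libraries of mouse intestine (3 Control, 3 NEC) were sequenced as 50 nt single-end reads. The authors deposited 1 table of normalized log2 values for 604 miRNAs. The submitters' processing notes name the build mm10. No source used here gives the aligner, the counting, the miRNA annotation or the transformation. Columns were matched by the library code in the labels, and 0 columns of values remained unmatched.

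Values were used as deposited, with no added constant. MiRNAs that had 3 or more libraries at 3.32 or higher (10 when back-transformed) were compared between NEC and Control, with no covariate, using limma (version 3.58.1, R version 4.3.3), with two-sided p-values adjusted over these 386 by Benjamini-Hochberg. Differences between arms and values of miR-210-5p were compared by exact permutation over libraries. The fit was tested on simulated data. Hairpin pairing was predicted with RNAfold (version 2.7.2), and 3′UTRs were those of GENCODE.

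Members and lists were chosen with earlier results of these data known. Named miRNAs were both arms, the 3 nearest above and below miR-210-3p in level, the 3 most similar by r in each way, and from each list the tested members highest in mean, at most 4. Other cell type miRNAs in the text (miR-141-3p, miR-144-3p, miR-217-5p, miR-124-3p and miR-9-5p) and miR-103-3p fall outside this rule and were named after their values were seen. Alternatives were other minimums, shifts of each library, added constants of 0.1, 1 and 5, a robust fit, the code series as a covariate or alone, a replicate block and leaving out each library. Comparisons of miR-210-5p and of the arms between code series, and the changes of the NEC minus Control difference between code series, were added after the values were seen.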

Additional observations from a re-analysis of the deposited data

How the results depend on the processing

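The NEC minus Control difference of miR-210-3p kept its direction under all 20 alternatives and passed no threshold in the 19 that had a test, between 0.11 and 0.25 (adjusted p 0.469 to 1.00 in limma, where 0.11 to 0.25 is also the range when each library is left out in turn), and its difference between code series did so under 15, from 0.00037 to 0.29 (0.023 to 0.14 with a library left out). For miR-210-5p the NEC difference was 0.12, and -0.069 to 0.38 with a library left out. It reversed to -0.062 without Control replicate 3, to -0.069 without NEC replicate 2 and to -0.031 in code series 2 alone. The NEC change of the arm difference ranged from -0.21 to 0.30 with a library left out, reversing to -0.12 without Control replicate 1 and to -0.21 without NEC replicate 1. The count of miRNAs past an adjusted p in limma was 2 in code series 1 alone, and 0 to 0 with a library left out. The median of the list raised under low oxygen was -0.24 to -0.095 in its 18 alternatives. For miR-210-5p the difference between code series was -0.79 to -0.56 with a library left out, and -0.46 with libraries shifted by their total without the 10 most abundant (adjusted p = 0.0889, and 0.00636 to 0.123 over all its alternatives, limma). The arm difference between code series was 0.67 to 0.85. With the replicate number as a block, the miR-210-3p difference was 0.20 (adjusted p = 0.999, limma), 0.19 with the median shift as well, and that of miR-210-5p 0.12 and of the arms 0.073, and no miRNA passed. The correlations of deviations of same-numbered libraries were -0.69, 0.73 and -0.78. The pair with a positive value lies within code series 1 and the others cross the code series, so these values do not show whether the numbers pair libraries, and no label says that they do. The table has no counts, and the depth that limits miR-210-5p is unknown.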
